A study of Arabidopsis thaliana with 6 samples.

Results

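The genes described here are the core cell cycle regulators of Arabidopsis thaliana, 41 loci that comprise 10 A-type, 9 B-type and 10 D-type cyclins, 5 cyclin-dependent kinases (CDKs) and the 7 KIP-RELATED PROTEIN (KRP) inhibitors. They were chosen by locus identifier and not by their values, and reads were listed for 40 of them, among 23874 genes read in at least 1 library. The study made reciprocal crosses of the accessions Col-0 and Cvi-0 and dissected the hybrid embryos when they had 1 or 2 cells, 8 cells and roughly 32 cells, which was about 40, 64 and 78 h after pollination. Each of the 6 groups was 1 library of polyadenylated RNA, amplified linearly from a pool of 20 washed embryos, from plants kept at 22 °C, and the labels call the material embryo proper. The groups are Col-0 x Cvi-0 and Cvi-0 x Col-0 at each stage, with the parent named first taken as the mother. All embryos are therefore F1 hybrids, and no group is a selfed accession.

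Cyclins bind CDKs and set when the kinases are active. D-type cyclins with CDKA;1 relieve the block that the retinoblastoma protein places on entry into S phase, A-type cyclins act from S phase to mitosis, and B-type cyclins with the plant-specific B-type CDKs act at the G2-to-M transition. KRPs bind cyclin-CDKA complexes and inhibit them. Early Arabidopsis embryos divide in a nearly fixed pattern, and the first divisions also set up the axis and the tissue layers.

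Gene reads per library ran from 10299142 to 14805499, and reads that could be assigned to a parental allele from 1233554 to 1723728. Levels are given as RPM, reads per 1000000, scaled by the authors to the reads that matched the genome and transcript models. With 1 library per group, both directions of the cross served as the repeats of a stage, so an error given as SD (n = 2) holds differences between the crosses as well, and p-values measure the spread between these libraries. Stage differences are log2 values ± standard error from edgeR's quasi-likelihood test with terms for stage and cross over 17478 genes, and a change means a Benjamini-Hochberg adjusted p below 0.05. Of the 8 embryo marker genes looked up, 8 had reads in all 6 libraries, at a summed level of 795 to 1120 RPM. Seed coat markers, 6 of 7 read in all libraries and TT8 at 0 in 1, summed to 46.2, 45.7 and 56.3 RPM in Col-0 x Cvi-0 and to 48.6, 71.5 and 130.2 RPM in Cvi-0 x Col-0 embryos, in stage order. Endosperm markers, 3 of 8 read in all libraries, summed to 52.1, 22.2 and 7.13 RPM in Col-0 x Cvi-0 and to 45.3, 22.6 and 14.95 RPM in Cvi-0 x Col-0 embryos of which the sucrose transporter SUC5 made up 44.8, 18.2 and 2.15 RPM in Col-0 x Cvi-0 and 40.9, 16.4 and 8.47 RPM in Cvi-0 x Col-0 embryos. PHE1, ZOU, MINI3, IKU2 and FWA were each at 0 in some libraries. Of the 5 seed coat markers tested for maternal over paternal alleles, edgeR called 3 and DESeq2 5 higher. Their median log2 ratio was 6.61, and 0 of 6 embryo markers were called. Of all genes, edgeR called 0.129% and DESeq2 0.315% in either direction. The part of seed coat and endosperm in the values below, maternal shares included, was not tested. In such pools fewer cells of a type and less RNA per cell cannot be told apart.

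Levels differed widely between members. Of the 40 genes with reads, 15 averaged at least 20 RPM over the 6 libraries, 20 averaged 1 to under 20 RPM and 5 averaged less than 1 RPM. CYCA3;3, the remaining gene, was not listed in any library. The 15 highest were all 5 CDKs, 5 B-type, 2 A-type and 2 D-type cyclins and 1 inhibitor, KRP3. Per kilobase of exon, D-type cyclins CYCD3;3 (AT3G50070) and CYCD3;2 (AT5G67260) led with mean levels of 198 and 144 RPM per kb, with library ranges of 152 to 257 and 120 to 166 RPM per kb. CYCD3 cyclins promote division and hold back differentiation in young organs. The 4 B-type CDKs and the first 3 CYCB1 cyclins followed, at mean levels between 56.1 and 73.9 RPM per kb, ahead of CYCA1;1 at 37.0 and KRP3 at 23.3 RPM per kb. CDKA;1, the CDK that acts throughout the cycle, had 17.5 RPM per kb.

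**Figure D1:**
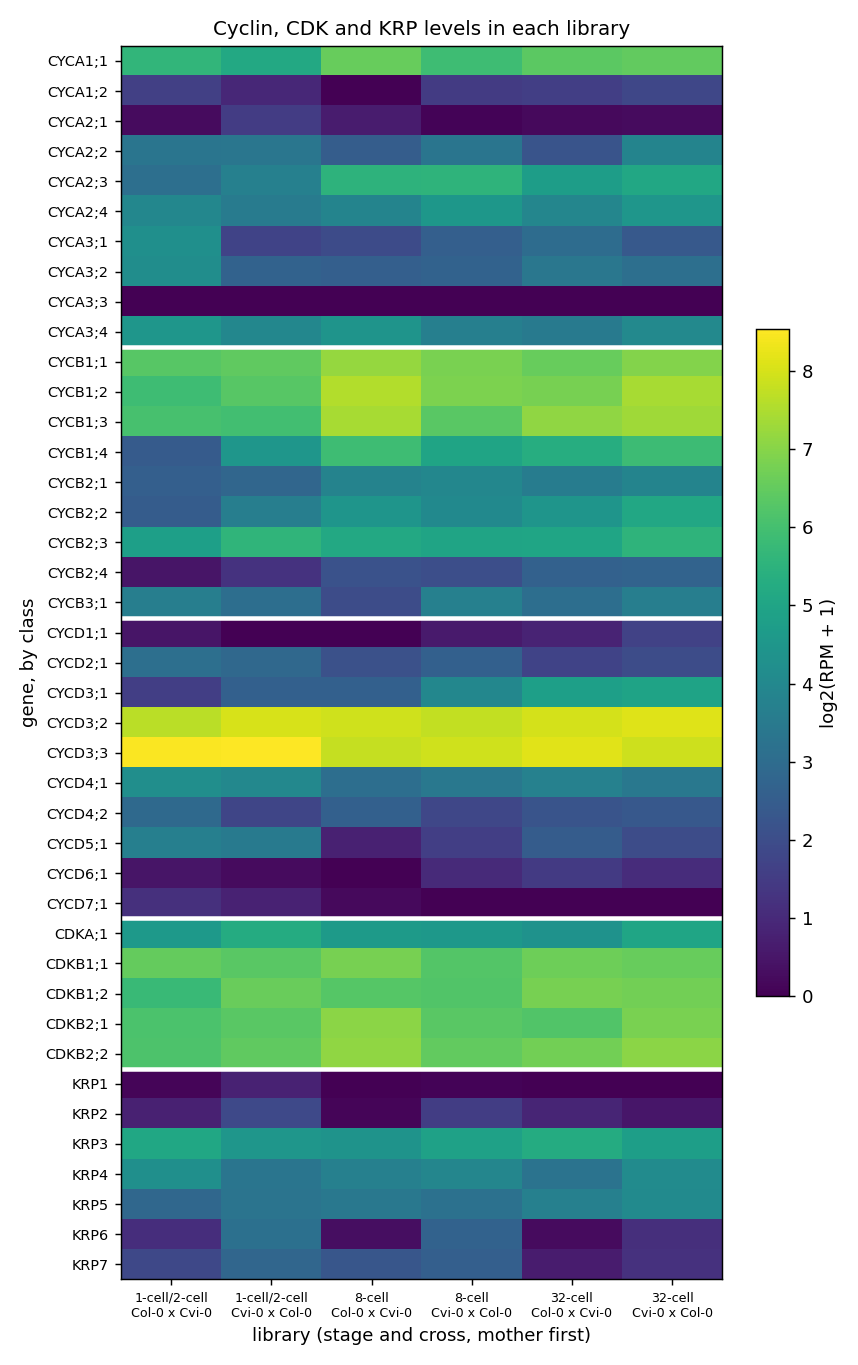
Level of the cyclin, CDK and KRP genes (rows, by class) in each of the 6 libraries (columns, by stage and cross), as colour on a log scale of RPM + 1. The last 2 CYCD3 genes are the brightest rows, at 201 to 370.2 RPM, and the KRP rows other than KRP3 stay below 20 RPM.

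Over stages, 1 of the 38 members tested rose at the 8-cell over the 1-cell/2-cell stage and 0 fell, where 0.864% of all genes rose and 0.235% fell. At the 32-cell over the 1-cell/2-cell stage 2 of 38 rose and 0 fell, against 4.18% and 3.6% of all genes. No member passed at the 32-cell over the 8-cell stage, where 0% of all genes did. There 2 members had an unadjusted p below 0.05 (11.8% of all genes), and DESeq2 called 1 as higher (1.6% of all genes). The 3 members not tested, because their reads were too few, were CYCA2;1, CYCA3;3 and KRP1. Before adjustment, 11 members at the 8-cell and 12 at the 32-cell stage had p below 0.05 relative to the 1-cell/2-cell stage, beside 13% and 26.5% of all genes, and DESeq2 called 4 (3 higher and 1 lower) and 8 (all higher). The shares of all genes under DESeq2 were 2.85% higher and 1.78% lower at the 8-cell stage and 9.42% higher and 7.78% lower at the 32-cell stage. By RPM alone, both 8-cell libraries lay above both 1-cell/2-cell libraries in 10 members (16% of all genes) and below them in 6 (25.6%). For both 32-cell libraries the counts were 16 above (27%) and 6 below (33.2%) the 1-cell/2-cell pair, and 10 above (24.2%) and 3 below (18.6%) the 8-cell pair. Over any stage, edgeR called 2 members (3.83% of all genes) and DESeq2 8 (12.8%).

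**Figure D2:**
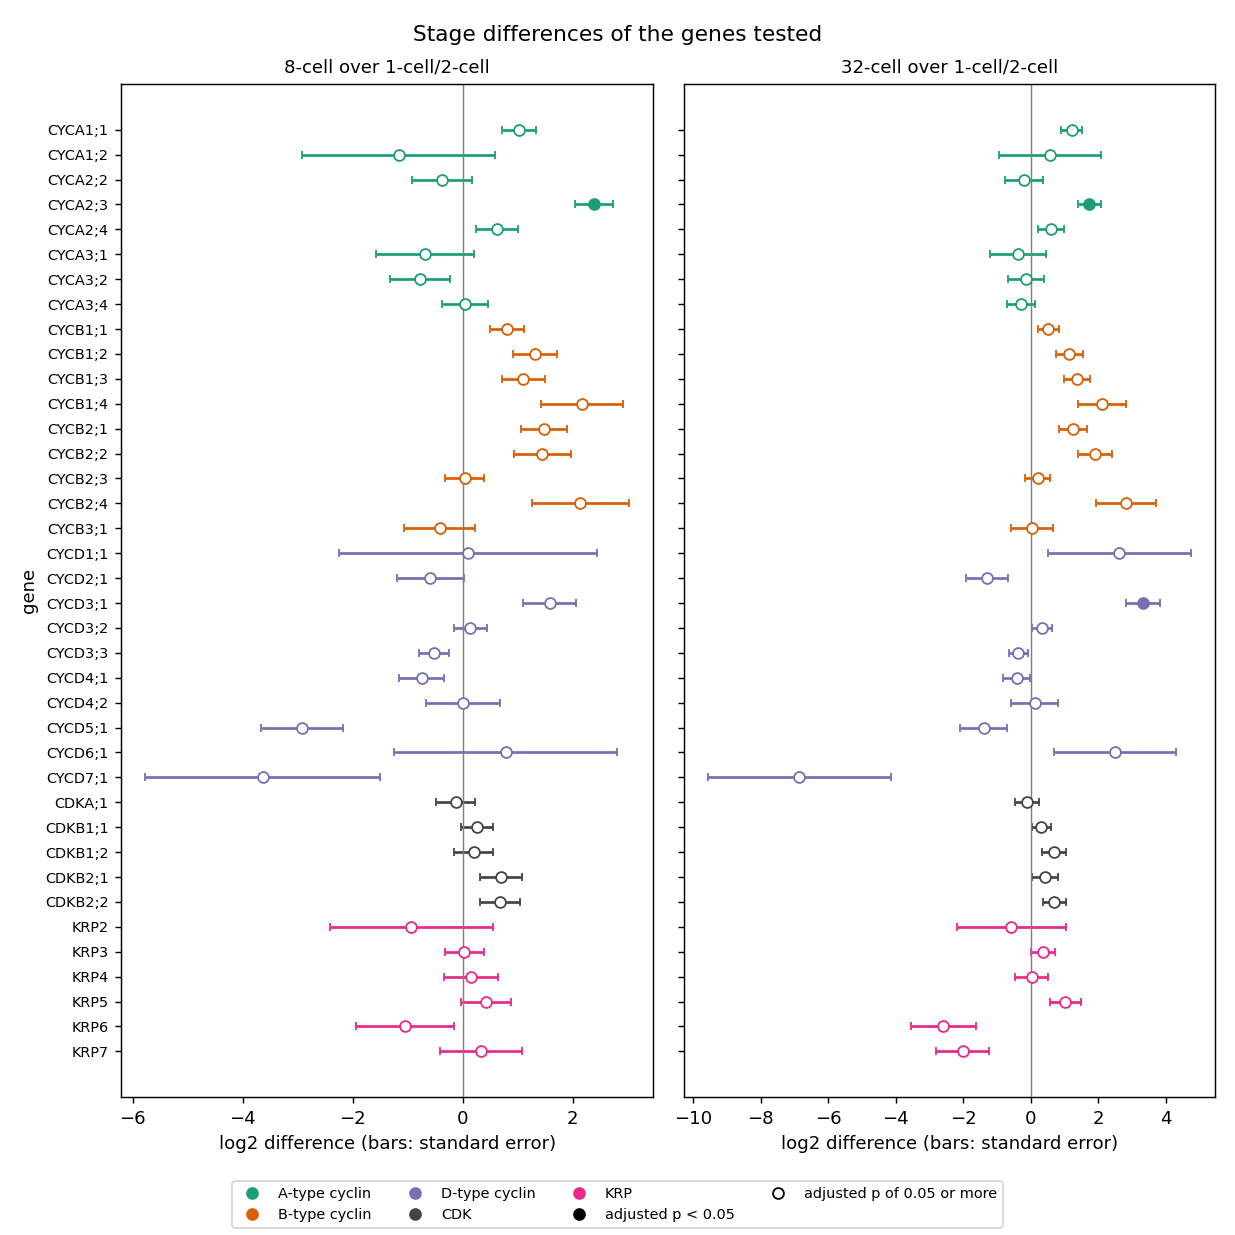
log2 difference of each tested member at the 8-cell (left) and 32-cell (right) stage over the 1-cell/2-cell stage, with bars of 1 standard error and filled points for an adjusted p below 0.05. CYCA2;3 is filled in both panels, at 2.39 and 1.74, and CYCD3;1 at the 32-cell stage, at 3.33, while 7 of 9 B-type cyclins lie to the right of 0.5 in both.

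Among the A-type cyclins, CYCA2;3 rose at both later stages. CYCA2;3 (AT1G15570, on the plus strand of chromosome 1) pairs with CDKB1;1 and restrains endoreduplication in Arabidopsis organs. In Col-0 x Cvi-0 embryos it had 7.71, 45.3 and 25.8 RPM in order of stage, and in Cvi-0 x Col-0 embryos 12.04, 45.6 and 34.0 RPM. Both 8-cell and both 32-cell libraries thus lay above both 1-cell/2-cell libraries, and both 32-cell libraries below both 8-cell libraries. The stage means were 9.88 ± 3.06, 45.5 ± 0.185 and 29.9 ± 5.78 RPM (SD, n = 2 each). The log2 difference was 2.39 ± 0.35 at the 8-cell over the 1-cell/2-cell stage (adjusted p = 0.0251) and 1.74 ± 0.34 at the 32-cell over the 1-cell/2-cell stage (adjusted p = 0.0261). The decline at the 32-cell over the 8-cell stage, -0.65 ± 0.33, did not pass (adjusted p = 0.491). The 8-cell call was lost without the 8-cell Col-0 x Cvi-0 library (2.07, adjusted p = 0.128) or its reciprocal (2.72, adjusted p = 0.0571), and the 32-cell call without Col-0 x Cvi-0 embryos of the 1-cell/2-cell stage (1.42, adjusted p = 0.0791). With DESeq2 the adjusted p was 1.29e-06 at the 8-cell and 0.000494 at the 32-cell stage.

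CYCA1;1 (AT1G44110), a cyclin expressed mainly towards mitosis, carried 44.2% of the A-type RPM. Its levels were 48.1, 92.7 and 81.9 RPM in Col-0 x Cvi-0 and 34.4, 58.5 and 88.9 RPM in Cvi-0 x Col-0 embryos, in stage order. All 4 later libraries exceeded both 1-cell/2-cell libraries, and the 32-cell difference of 1.22 ± 0.31 had an adjusted p of 0.0542, just outside the threshold in edgeR and at 0.00434 in DESeq2. Of the CYCA3 cyclins, associated with S phase, 0 of 3 tested were called. CYCA3;4 ranged from 10.3 to 21.2 RPM, CYCA3;2 from 4.95 to 17.2 RPM and CYCA3;1 from 2.25 to 18.1 RPM. Each of the 3 was highest in the Col-0 x Cvi-0 embryos of the 1-cell/2-cell stage. The remaining A-type genes were CYCA2;4 at 10.6 to 22.0 RPM, CYCA2;2 at 3.66 to 13.6 RPM, the meiotic cyclin CYCA1;2 at 0 to 2.49 RPM and CYCA2;1 at 0.0674 to 1.87 RPM. The median log2 difference of the 8 A-type genes tested was -0.17 at the 8-cell and 0.23 at the 32-cell stage over the 1-cell/2-cell stage, beside 0.01 and 0.00 over all genes. Without single libraries these medians ranged from -0.46 to 0.55 and from -0.41 to 1.03.

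Of the 5 classes, B-type cyclins had the highest median difference over the 1-cell/2-cell stage. The 9 genes had a median log2 difference of 1.32 at the 8-cell and 1.26 at the 32-cell stage over the 1-cell/2-cell stage. Between the 32-cell and the 8-cell stage it was 0.17. In 7 of 9, both 8-cell libraries lay above both 1-cell/2-cell libraries, and the count at the 32-cell stage was also 7, beside the 16% and 27% of all genes. None of the 9 passed in edgeR, while 7 at the 8-cell and 6 at the 32-cell stage had an unadjusted p below 0.05. The shares of all genes at that cut were 13% and 26.5%. DESeq2 called 2 at the 8-cell stage, both CYCB1 genes, and 5 at the 32-cell stage, 3 CYCB1 and 2 CYCB2 genes. All were higher, beside 2.85% and 9.42% of all genes called higher by DESeq2. The 8-cell median was 0.58 without the 8-cell Col-0 x Cvi-0 library and 1.71 without its reciprocal, and the 32-cell median ranged from 0.96 to 1.55 over single libraries left out.

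Promoters of B-type cyclins are known targets of MYB3R factors through the mitosis-specific activator (MSA) element, and they are shown because 6 of the 9 B-type promoters held several copies of its core and 3 held none. The 250 bases upstream of each annotated start were read from the TAIR10.1 genome of RefSeq on the strand of the gene, 5′ to 3′. Capitals mark the MSA core AACGG on either strand, which reads CCGTT when it lies on the other one.
CYCB1;1, chr4:17624309-17624558, minus strand: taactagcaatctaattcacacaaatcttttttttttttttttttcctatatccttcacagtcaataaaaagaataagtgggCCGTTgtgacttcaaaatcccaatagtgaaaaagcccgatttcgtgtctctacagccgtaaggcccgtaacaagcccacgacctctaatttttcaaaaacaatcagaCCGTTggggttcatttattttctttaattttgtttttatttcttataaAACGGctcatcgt
CYCB1;2, chr5:1861704-1861953, minus strand: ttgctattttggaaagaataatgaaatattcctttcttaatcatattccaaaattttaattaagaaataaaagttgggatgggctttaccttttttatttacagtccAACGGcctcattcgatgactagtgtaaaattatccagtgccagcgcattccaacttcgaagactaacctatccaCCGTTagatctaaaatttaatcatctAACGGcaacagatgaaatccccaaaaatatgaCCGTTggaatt
CYCB1;3, chr3:3627274-3627523, minus strand: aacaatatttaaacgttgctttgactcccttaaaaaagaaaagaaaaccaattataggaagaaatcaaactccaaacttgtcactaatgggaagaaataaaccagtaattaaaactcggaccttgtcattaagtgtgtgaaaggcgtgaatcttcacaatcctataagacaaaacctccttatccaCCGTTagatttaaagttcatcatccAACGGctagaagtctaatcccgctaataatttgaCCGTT
CYCB2;1, chr2:7663805-7664054, plus strand: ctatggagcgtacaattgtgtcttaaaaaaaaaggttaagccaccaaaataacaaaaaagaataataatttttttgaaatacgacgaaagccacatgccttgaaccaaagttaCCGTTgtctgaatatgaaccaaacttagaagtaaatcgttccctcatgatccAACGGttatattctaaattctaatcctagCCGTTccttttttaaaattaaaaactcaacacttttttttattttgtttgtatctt
CYCB2;2, chr4:16901346-16901595, plus strand: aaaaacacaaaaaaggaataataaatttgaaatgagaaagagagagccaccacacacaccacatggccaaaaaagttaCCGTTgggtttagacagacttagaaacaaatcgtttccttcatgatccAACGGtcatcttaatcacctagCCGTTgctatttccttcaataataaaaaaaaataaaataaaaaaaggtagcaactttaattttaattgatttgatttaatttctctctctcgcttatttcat
CYCB2;3, chr1:7137829-7138078, minus strand: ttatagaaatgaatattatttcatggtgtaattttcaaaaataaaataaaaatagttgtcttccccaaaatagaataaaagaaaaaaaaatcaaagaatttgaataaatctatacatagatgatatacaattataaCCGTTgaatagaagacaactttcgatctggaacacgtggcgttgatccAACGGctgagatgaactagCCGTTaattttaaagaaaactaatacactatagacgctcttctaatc
CYCB1;4, chr2:11400868-11401117, plus strand: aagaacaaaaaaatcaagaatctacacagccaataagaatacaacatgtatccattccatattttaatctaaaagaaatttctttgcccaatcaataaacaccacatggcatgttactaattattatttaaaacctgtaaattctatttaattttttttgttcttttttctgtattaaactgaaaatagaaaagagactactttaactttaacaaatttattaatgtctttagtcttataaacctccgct
CYCB2;4, chr1:28630790-28631039, minus strand: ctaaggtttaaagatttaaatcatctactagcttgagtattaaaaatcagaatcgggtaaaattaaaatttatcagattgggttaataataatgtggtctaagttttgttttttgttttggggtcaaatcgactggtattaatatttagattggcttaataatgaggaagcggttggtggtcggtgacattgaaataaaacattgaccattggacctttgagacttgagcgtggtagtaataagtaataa

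CYCB1;2 held 4 copies of the core and the other 5 promoters with capitals held 3 each, while the last 2 printed and that of CYCB3;1 held 0. At least 3 copies were thus present in 6 of 9 B-type promoters, beside 0.736% of 27443 protein-coding genes and 0.951% of the 16934 tested genes among them. In the other classes, at least 3 copies were present in 2 of 7 KRP promoters, KRP1 with 6 and KRP7 with 3. At least 2 copies were present in 4 of 10 A-type promoters, beside 3.62% of all protein-coding genes. At least 1 copy was present in 4 of 10 A-type, 1 of 10 D-type, 1 of 5 CDK and 4 of 7 KRP promoters, beside 20.6% of all protein-coding genes. The CDK match was CDKB2;2, and CYCA2;3 held 0. The E2F letters TTTCCCGC and TTTGGCGC, searched on both strands, were found in 1 of the 41 promoters (CYCD3;3), beside 0.958% of all protein-coding genes. A match describes these letters in this window and is not a measured binding site.

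CYCB1;1 (AT4G37490), whose promoter and destruction box are the standard reporter of cells at G2 to M, had 78.3, 144.7 and 92.6 RPM in Col-0 x Cvi-0 and 85.8, 111 and 123 RPM in Cvi-0 x Col-0 embryos in order of stage. CYCB1;2 (AT5G06150) had 58.8, 185 and 109 RPM in Col-0 x Cvi-0 and 78.8, 115 and 172 RPM in Cvi-0 x Col-0 embryos. CYCB1;3 (AT3G11520) had 64.9, 171 and 138 RPM in Col-0 x Cvi-0 and 61.6, 80.1 and 159 RPM in Cvi-0 x Col-0 embryos. For these 3 genes the highest library was the 8-cell one among Col-0 x Cvi-0 embryos and the 32-cell one among Cvi-0 x Col-0 embryos. CYCB1;4 (AT2G26760) showed that order too, with 4.40, 57.8 and 38.9 RPM in Col-0 x Cvi-0 and 21.6, 31.0 and 56.4 RPM in Cvi-0 x Col-0 embryos. Its log2 difference was 2.18 ± 0.75 at the 8-cell and 2.10 ± 0.71 at the 32-cell over the 1-cell/2-cell stage, with no copy of the MSA core upstream.

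CYCB2 genes spanned the range of the class. CYCB2;3 (AT1G20610), with 3 copies of the core, differed by 0.03 ± 0.36 at the 8-cell stage over the 1-cell/2-cell stage. Its levels were 27.5, 34.8 and 31.8 RPM in Col-0 x Cvi-0 and 46.5, 30.6 and 45.6 RPM in Cvi-0 x Col-0 embryos, so the stages overlapped. CYCB2;4 (AT1G76310), with 0 copies, had the largest stage difference of the B-type cyclins. It was read at 0.393, 3.43 and 5.29 RPM in Col-0 x Cvi-0 and at 1.40, 3.17 and 5.62 RPM in Cvi-0 x Col-0 embryos, with no overlap between any stages. Its 32-cell over 1-cell/2-cell difference of 2.81 ± 0.89 had an adjusted p of 0.0964 in edgeR and 0.0257 in DESeq2, and in edgeR it was 4.05 (adjusted p = 0.0438) without the Cvi-0 x Col-0 embryos of the 1-cell/2-cell stage and 1.97 (adjusted p = 0.284) without their reciprocal. CYCB2;1 lay at 5.03 to 14.4 RPM and CYCB2;2 at 4.64 to 33.5 RPM, each with both later stages above both 1-cell/2-cell libraries. CYCB3;1, a cyclin with a role in meiosis, lay at 2.97 to 12.2 RPM with overlapping stages.

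**Figure D3:**
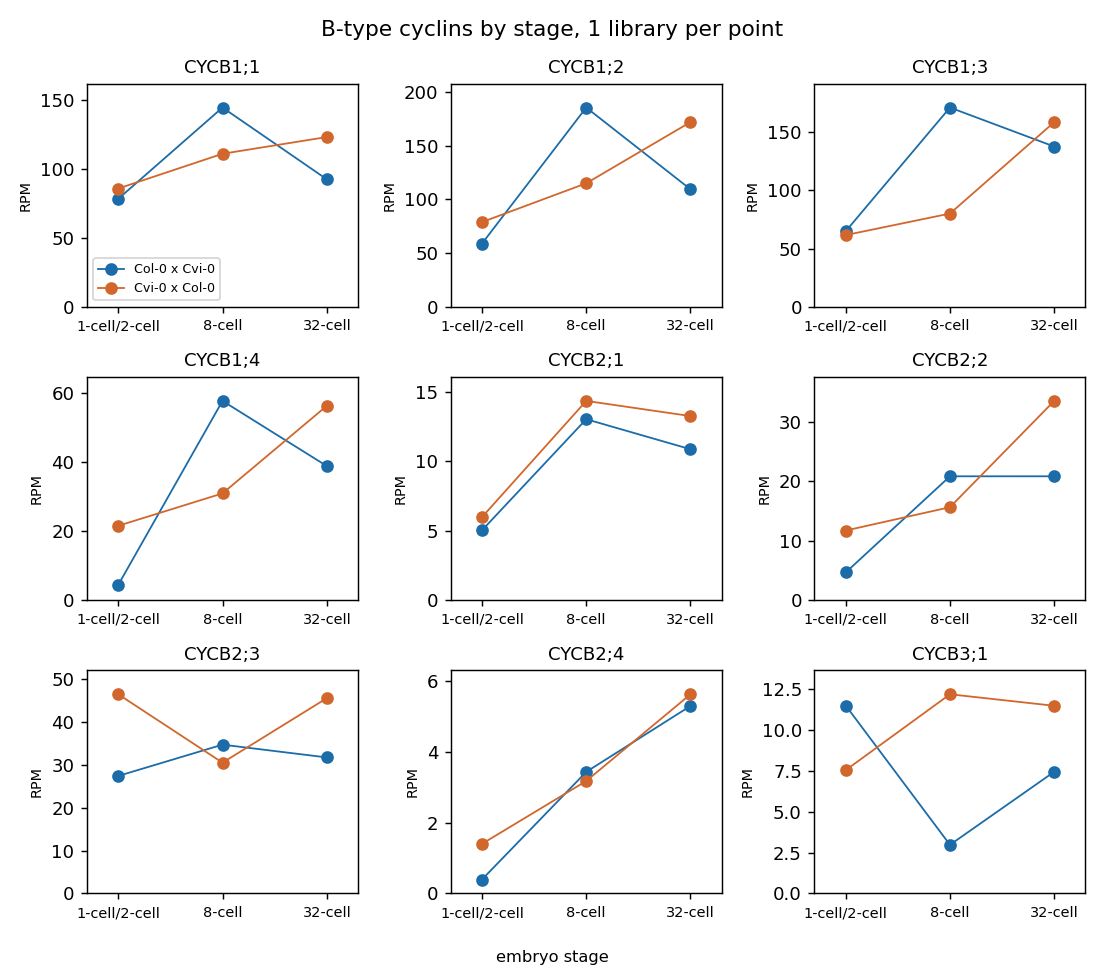
RPM of the 9 B-type cyclins by embryo stage, 1 point per library, with a line for each direction of the cross and a y axis from 0 in each panel. Both later stages lie above both 1-cell/2-cell points in 7 of the 9 panels, and in Col-0 x Cvi-0 embryos the CYCB1 genes are highest at the 8-cell stage.

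D-type cyclins as a class did not move together. Their median log2 difference was -0.26 at the 8-cell and -0.12 at the 32-cell stage over the 1-cell/2-cell stage. It was -0.89 at the 8-cell stage when 8-cell embryos of Cvi-0 x Col-0 were left out, and 0.03 at the 32-cell stage without Col-0 x Cvi-0 embryos of the 1-cell/2-cell stage. CYCD3;1 (AT4G34160), a cyclin induced by cytokinin and sugar, rose at the 32-cell over the 1-cell/2-cell stage by 3.33 ± 0.51 (adjusted p = 0.0116). It had 1.97, 5.08 and 27.0 RPM in Col-0 x Cvi-0 and 5.17, 14.5 and 30.2 RPM in Cvi-0 x Col-0 embryos. The stage means were 3.57 ± 2.26, 9.79 ± 6.66 and 28.6 ± 2.32 RPM (SD, n = 2 each). Both 32-cell libraries were above the other 4, and the 8-cell Col-0 x Cvi-0 library lay just under the Cvi-0 x Col-0 one of the 1-cell/2-cell stage. The call held in 6 of 6 fits that each left out 1 library, with log2 differences of 2.62 to 3.96 and adjusted p up to 0.0224. The 32-cell over 8-cell difference was 1.75 ± 0.48 (adjusted p = 0.246 in edgeR and 0.0415 in DESeq2).

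Its relatives, the other two CYCD3 genes, were already abundant at the first stage and together held 92.6% of the D-type RPM. CYCD3;2 had 201, 241 and 253 RPM in Col-0 x Cvi-0 and 261, 212 and 279 RPM in Cvi-0 x Col-0 embryos, with overlapping 1-cell/2-cell and later stages. CYCD3;3 had 360.1, 219 and 282 RPM in Col-0 x Cvi-0 and 370.2, 239 and 236 RPM in Cvi-0 x Col-0 embryos, so both 1-cell/2-cell libraries were above the other 4. Its 8-cell over 1-cell/2-cell difference of -0.52 ± 0.27 did not pass (adjusted p = 0.484).

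In 5 of 10 D-type genes both 8-cell libraries lay below both 1-cell/2-cell libraries (CYCD2;1, CYCD3;3, CYCD4;1, CYCD5;1 and CYCD7;1), beside 25.6% of all genes. The same 5 genes did so at the 32-cell stage, beside 33.2% of all genes. For CYCD5;1 (AT4G37630) the levels were 11.9, 0.702 and 4.58 RPM in Col-0 x Cvi-0 and 10.4, 1.99 and 2.97 RPM in Cvi-0 x Col-0 embryos. Its difference of -2.93 ± 0.75 at the 8-cell stage had an adjusted p of 0.149 in edgeR and 0.0105 in DESeq2. CYCD7;1 (AT5G02110), best known from the last division of the stomatal lineage, had 16.5, 2 and 0 reads in Col-0 x Cvi-0 and 10, 0 and 0 reads in Cvi-0 x Col-0 embryos, in stage order. Set against a floor of 3 reads over both 32-cell libraries, it was at least 11.4-fold higher at the 1-cell/2-cell stage, and its fitted difference did not pass (adjusted p = 0.169). The scarce CYCD1;1 (0 to 2.19 RPM) and CYCD6;1, which acts in formative root divisions (0 to 1.72 RPM), were higher in both 32-cell than in both 1-cell/2-cell libraries and did not pass. CYCD4;1 had 17.4, 7.51 and 12.4 RPM in Col-0 x Cvi-0 and 14.9, 9.67 and 9.57 RPM in Cvi-0 x Col-0 embryos, CYCD2;1 2.27 to 7.63 RPM and CYCD4;2 2.41 to 6.61 RPM over the 6 libraries.

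None of the 5 CDKs changed between stages in edgeR or DESeq2, and 0 had an unadjusted p below 0.05. The shares of all genes at that cut were 13% and 26.5% at the 8-cell and 32-cell over the 1-cell/2-cell stage. In edgeR, 0.864% and 4.18% of all genes were called higher there, so 0 of 5 genes says little about this class. The median log2 difference of the CDKs was 0.25 at the 8-cell and 0.43 at the 32-cell stage over the 1-cell/2-cell stage. The 8-cell median turned to -0.04 without the 8-cell Col-0 x Cvi-0 library and was 0.80 without the Cvi-0 x Col-0 embryos of the 1-cell/2-cell stage. CDKA;1 (AT3G48750) had 22.7, 24.2 and 19.3 RPM in Col-0 x Cvi-0 and 36.7, 22.7 and 31.7 RPM in Cvi-0 x Col-0 embryos. CDKB1;1 (AT3G54180) had 89.9, 110.0 and 100.2 RPM in Col-0 x Cvi-0 and 80.8, 74.6 and 93.7 RPM in Cvi-0 x Col-0 embryos. The stages of the first gene overlapped. The second was higher in both 32-cell than in both 1-cell/2-cell libraries, and it was the only one of the 38 tested members to be higher in Col-0 x Cvi-0 than in Cvi-0 x Col-0 embryos at each of the 3 stages, as 7.46% of all genes were.

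CDKB1;2 (AT2G38620) had 54.8, 77.7 and 109.9 RPM in Col-0 x Cvi-0 and 94.3, 73.7 and 105 RPM in Cvi-0 x Col-0 embryos, with both 32-cell libraries above the other 4. CDKB2;1 (AT1G76540) had 67.7, 133 and 74.0 RPM in Col-0 x Cvi-0 and 81.6, 81.4 and 111 RPM in Cvi-0 x Col-0 embryos. CDKB2 kinases are made only around G2 and mitosis and are needed for an organised shoot meristem. CDKB2;2 (AT1G20930) had 70.3, 137 and 105 RPM in Col-0 x Cvi-0 and 87.2, 88.4 and 130.4 RPM in Cvi-0 x Col-0 embryos. It had the largest stage difference of the CDKs, 0.70 ± 0.35 at the 32-cell over the 1-cell/2-cell stage (adjusted p = 0.247), with both later stages above both 1-cell/2-cell libraries.

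**Figure D4:**
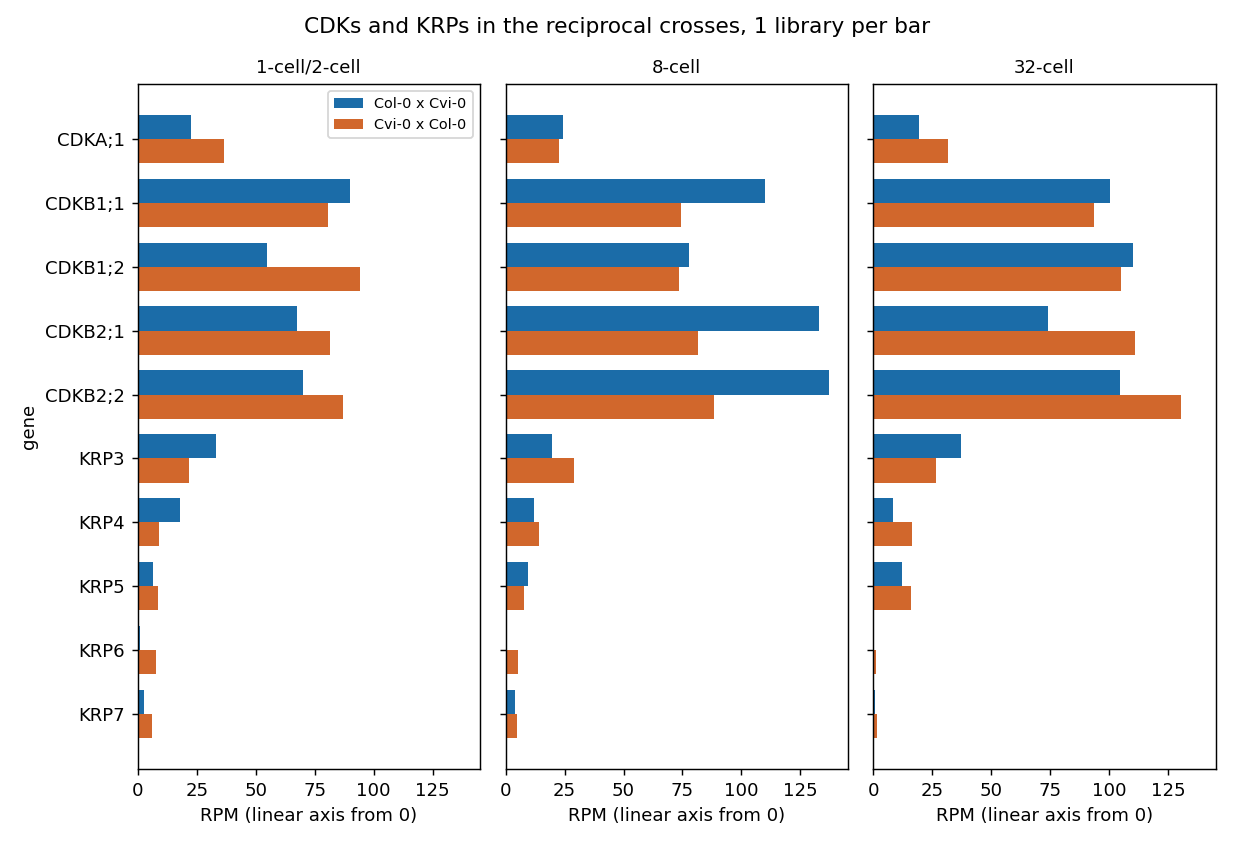
RPM of the 5 CDKs and of 5 KRPs (rows) by embryo stage (panels), 1 bar per library, coloured by direction of the cross, on a linear axis from 0. The bars of the B-type CDKs end between 54.8 and 137 RPM and those of CDKA;1 between 19.3 and 36.7 RPM, and KRP6 is higher in Cvi-0 x Col-0 than in Col-0 x Cvi-0 embryos at each stage.

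None of the 6 KRP inhibitors tested changed between stages in edgeR or DESeq2, and KRP1 was not tested. At the 32-cell over the 1-cell/2-cell stage 2 of the 6 had an unadjusted p below 0.05, beside 26.5% of all genes. In edgeR, 4.18% of all genes were called higher and 3.6% lower there. KRP3 (AT5G48820) carried 47.8% of the KRP RPM, with 33.1, 19.7 and 37.2 RPM in Col-0 x Cvi-0 and 21.6, 28.8 and 26.4 RPM in Cvi-0 x Col-0 embryos. Its 8-cell library was the lowest among Col-0 x Cvi-0 and the highest among Cvi-0 x Col-0 embryos. KRP4 ranged from 8.42 to 18.0 RPM and KRP5 from 6.29 to 16.0 RPM. KRP5 was the only inhibitor with both 32-cell libraries above both 1-cell/2-cell libraries (1.03 ± 0.45, adjusted p = 0.197), as 27% of all genes were. Both 32-cell libraries lay below both 1-cell/2-cell libraries in 1 of the 6, KRP7, and in 33.2% of all genes. KRP7 (AT1G49620) had 2.60, 3.92 and 0.584 RPM in Col-0 x Cvi-0 and 6.10, 5.02 and 1.32 RPM in Cvi-0 x Col-0 embryos, lowest in both 32-cell libraries (-2.01 ± 0.78 over the 1-cell/2-cell stage, adjusted p = 0.154). KRP2 ranged from 0.0826 to 2.72 RPM. KRP1 had 1, 0 and 0 reads in Col-0 x Cvi-0 and 10, 1 and 0 reads in Cvi-0 x Col-0 embryos, in stage order, so 10 of its 12 reads came from 1 library.

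KRP6 (AT3G19150), which with KRP7 is broken down through the F-box protein FBL17 to let the germ cell of Arabidopsis pollen divide, differed most between the crosses. It had 1.18, 0.248 and 0.184 RPM in Col-0 x Cvi-0 and 7.96, 5.36 and 1.20 RPM in Cvi-0 x Col-0 embryos. At every stage the Cvi-0 x Col-0 library was higher, and in that cross the value was lower at each later stage (102.5, 79.5 and 20 reads). The Col-0 x Cvi-0 values rested on 15, 3 and 3 reads, so the 8-cell and 32-cell libraries of that cross did not differ in reads. The log2 difference of Col-0 x Cvi-0 over Cvi-0 x Col-0 was -3.08 ± 0.79 (unadjusted p = 0.00512, adjusted p = 0.83), and that of the 32-cell over the 1-cell/2-cell stage -2.59 ± 0.96 (adjusted p = 0.138). Its single variant position carried 6 allele reads, too few to say which parental copy was read.

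Between the directions of the cross, 0 of 38 members changed in edgeR and 0 in DESeq2, and 1 had an unadjusted p below 0.05 (KRP6). Of all genes, edgeR called 0.00572%, DESeq2 called 0.28%, and 5.68% had an unadjusted p below 0.05. Within stages, where each side is 1 library, the values are given as a description with no test. At the 8-cell stage 5 of 5 CDKs and 7 of 9 B-type cyclins were higher in Col-0 x Cvi-0 than in Cvi-0 x Col-0 embryos, as were 33.6% of all genes, while 2 of 15 DNA replication genes were. Of the other classes, 2 of 8 A-type and 3 of 10 D-type cyclins and 1 of 6 KRPs were higher there, which made 18 of 38 members. At the 32-cell stage 2 of 5 CDKs and 0 of 9 B-type cyclins were higher in Col-0 x Cvi-0, beside 32.9% of all genes. At the 1-cell/2-cell stage the counts were 1 of 5 and 2 of 9, beside 48.7% of all genes, and 12 of 15 DNA replication genes. The summed RPM of the B-type cyclins was 255, 634 and 455 RPM in Col-0 x Cvi-0 and 321, 413 and 619.6 RPM in Cvi-0 x Col-0 embryos. Summed CDK levels were 305, 482 and 408 RPM in Col-0 x Cvi-0 and 381, 341 and 471 RPM in Cvi-0 x Col-0 embryos. At all 3 stages, 6 members were higher in Cvi-0 x Col-0 than in Col-0 x Cvi-0 embryos (2 CYCA2 genes, 1 B-type and 1 D-type cyclin, KRP6 and KRP7), as were 24.7% of all genes.

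Genes that act with the members were looked up by list. At the 32-cell over the 1-cell/2-cell stage, 0 of 9 genes of the retinoblastoma-E2F group, 0 of 9 tested CDK regulators, 0 of 4 MYB3R genes and 0 of 15 DNA replication genes changed, and 2 of 14 genes for the turnover of cyclins and KRPs rose in edgeR. The share of all genes that rose there was 4.18% in edgeR. DESeq2 called 4 turnover genes higher and 0 genes of the other lists, beside 9.42% of all genes called higher. In the other two stage comparisons edgeR called 0 genes of these lists. DESeq2 called 3 turnover genes higher at the 8-cell over the 1-cell/2-cell stage (2.85% of all genes) and 1 lower at the 32-cell over the 8-cell stage (364 of 17478 genes). The 2 that rose were CDC20.1 and CDC20.2, activators of the anaphase-promoting complex, the ubiquitin ligase that marks mitotic cyclins for destruction. CDC20.1 (AT4G33270) had 14.4, 63.6 and 55.6 RPM in Col-0 x Cvi-0 and 16.5, 43.3 and 89.9 RPM in Cvi-0 x Col-0 embryos (2.35 ± 0.38 at the 32-cell over the 1-cell/2-cell stage, adjusted p = 0.0145). CDC20.2 (AT4G33260) had 4.48, 13.7 and 23.6 RPM in Col-0 x Cvi-0 and 0.971, 18.9 and 47.1 RPM in Cvi-0 x Col-0 embryos (3.90 ± 0.71, adjusted p = 0.0209). Both genes were above their 1-cell/2-cell levels in all 4 later libraries. They are near-identical neighbours, so how unique matching divided their reads is uncertain. DNA replication genes had a median log2 difference of -0.38 at the 8-cell and -0.03 at the 32-cell stage over the 1-cell/2-cell stage, beside 1.32 and 1.26 for the B-type cyclins.

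Reads over variants that differ between Col-0 and Cvi-0 asked which parental copy was read. Of the 41 members, 34 had such reads and 11 reached the minimum for a test, 10 allele reads in the average library. The other 23 had at most 59 reads each over all libraries. Over the 11 tested genes 3490 reads were maternal and 3322 paternal, a maternal share of 51.2% (exact 95% binomial interval 50.04 to 52.4%, which covers counting error only). By stage, in order of age and pooled over both crosses, the share was 54.8% (52.3 to 57.3%), 51.3% (49.0 to 53.6%) and 49.6% (47.9 to 51.3%). These pools include CYCD4;1, with 711 of its 717 reads from Col-0. Its maternal shares by stage, 57.1%, 36.0% and 56.0%, follow how many reads each cross gave. The pooled shares without this gene were not computed. None of the 11 was unequal between maternal and paternal alleles in edgeR or DESeq2 and 0 had an unadjusted p below 0.05, beside 0.129% of 6988 genes called by edgeR, 0.315% by DESeq2 and 4.31% at an unadjusted p below 0.05. Pooled over all libraries, the shares of single genes lay between 45.1% and 55.5%, and the interval included an equal share in 9 of 11. It did not for KRP3 at 45.1% (40.4 to 49.9%) and CDKB2;2 at 55.5% (52.6 to 58.4%). The fitted maternal over paternal log2 ratios, which take the accession into account, lay between -0.31 ± 0.31 for CYCD3;1 and 0.41 ± 0.44 for KRP4.

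CDKB2;2 had 645 maternal and 517 paternal reads, CYCA1;1 925 maternal and 992 paternal reads, CYCB1;4 182 maternal and 154 paternal reads and CYCD3;1 159 maternal and 183 paternal reads. Both parental copies were thus read for a mitotic kinase, for an A-, a B- and a D-type cyclin. The crosses are given apart for CYCA1;1 and some further genes, because pooled shares weight the deeper library of a stage more. In stage order the maternal share of CYCA1;1 was 65.5%, 42.0% and 48.4% in Col-0 x Cvi-0 embryos. In Cvi-0 x Col-0 embryos it was 18.5%, 50.4% and 53.3%. At the 1-cell/2-cell stage Col-0 reads of CYCA1;1 thus outnumbered Cvi-0 reads in both crosses, 93 to 49 and 97 to 22. CDKB2;2 had 41.3%, 69.5% and 50.2% in Col-0 x Cvi-0 and 55.8%, 58.8% and 52.1% in Cvi-0 x Col-0 embryos. Its maternal share was thus highest at the 8-cell stage in both crosses. For CDKB1;2 the maternal share in stage order was 43.8%, 55.0% and 40.2% in Col-0 x Cvi-0 and 75.6%, 56.3% and 47.4% in Cvi-0 x Col-0 embryos. KRP4 had 51.3%, 67.6% and 68.2% in Col-0 x Cvi-0 and 83.3%, 47.5% and 29.5% in Cvi-0 x Col-0 embryos, so its crosses ran in opposite directions. For CYCA2;2 the share was 64.7%, 48.1% and 48.5% in Col-0 x Cvi-0 and 70.0%, 56.5% and 43.1% in Cvi-0 x Col-0 embryos, highest at the first stage in both. CYCD3;2 had 66.1%, 22.5% and 66.2% in Col-0 x Cvi-0 and 53.7%, 45.9% and 43.4% in Cvi-0 x Col-0 embryos. Reads per library were few, down to 15 maternal and 7 paternal reads for KRP4 in 32-cell Col-0 x Cvi-0 embryos. No parental ratio changed between stages (0 of 11, 0% of all genes; unadjusted p from 0.187 to 0.941, and 0 called by DESeq2).

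**Figure D5:**
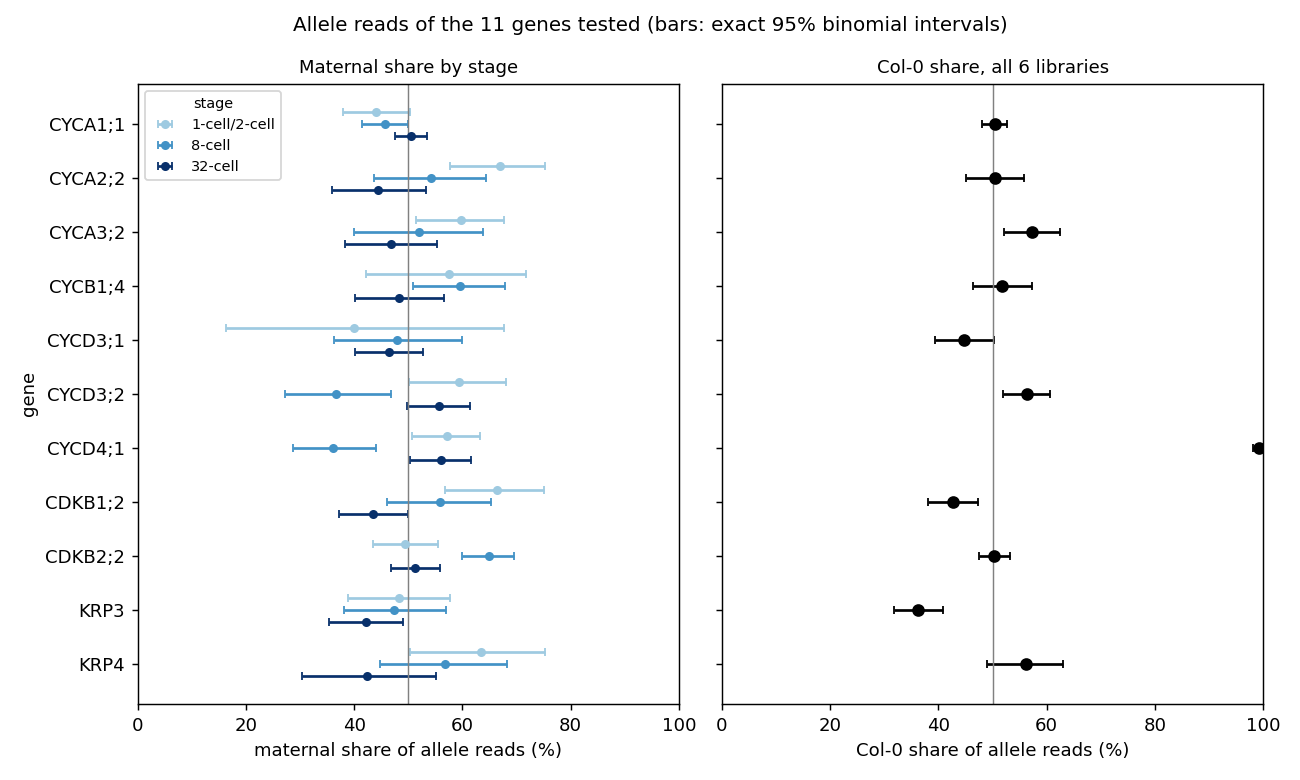
Maternal share of allele reads by stage (left) and Col-0 share over all 6 libraries (right) of the 11 members with enough allele reads, in percent, with exact 95% binomial intervals and a line at equal shares. Maternal shares lie between 36.0% (CYCD4;1, 8-cell) and 66.9% (CYCA2;2, 1-cell/2-cell). The Col-0 share is 99.2% for CYCD4;1 and 36.2% for KRP3.

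Between accessions, 1 of the 11 members was read more from the Col-0 allele and 1 more from the Cvi-0 allele, beside 13.7% and 6.81% of all genes. DESeq2 called 1 and 0, beside 12.8% and 6.44%. CYCD4;1 (AT5G65420), a cyclin that partners B-type CDKs, had 711 Col-0 reads against 6 Cvi-0 reads, a log2 ratio of 6.73 ± 0.41 (adjusted p = 1.23e-07). The Col-0 copy led in each library whether it came from the mother or the father. A single variant held 98.2% of its allele reads, all 704 of them Col-0, and the other 3 variants had 10 Col-0 and 6 Cvi-0 reads (62.5% Col-0, interval 35.4 to 84.8%). Whether that variant or the allele differs cannot be told apart from these reads.

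For KRP3, 159 reads carried the Col-0 and 280 the Cvi-0 allele. The Col-0 share was 36.2% (31.7 to 40.9%), with a Col-0 over Cvi-0 log2 ratio of -0.87 ± 0.27 (adjusted p = 0.036). Cvi-0 reads were more numerous in 6 of 6 libraries. With DESeq2 the adjusted p was 0.0561, and the call was lost in all 6 fits that left out 1 library (adjusted p from 0.0584 to 0.0998). At the variant with most reads KRP3 had 137 Col-0 and 235 Cvi-0 reads, and at its other 9 variants 47 Col-0 and 58 Cvi-0 reads. The Col-0 share at these 9 was 44.8%, with an interval of 35.0 to 54.8% that includes an equal share. Some reads count at more than 1 variant, so the variant counts of KRP3 and CYCD4;1 exceed their allele totals. CYCD3;1 differed between its variants, as its leading variant had 108 Col-0 and 78 Cvi-0 reads, while the other 3 had 45 Col-0 and 111 Cvi-0 reads.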

How the data were processed

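The series measured polyadenylated RNA in 6 strand-specific libraries, 1 per stage and direction of the cross. Per the labels, reads were mapped with Bowtie (version not given in the sources used here) to Col-0 and to a Cvi-0 version of TAIR10 in which known variants were replaced, and only perfect, unique matches were kept, which removes reads shared by close paralogs and can drop reads with unlisted variants. The authors deposited gene reads in steps of 0.5, treated here as estimated counts and rounded to whole numbers for tests. They also deposited these as RPM, and counts of reads per parental allele. Genes not listed in a library were taken as 0. The 30 columns holding other forms of these values were not used.

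Stages and crosses were tested with edgeR's quasi-likelihood functions (edgeR 4.0.16, limma 3.58.1, R 4.3.3) on stage and cross, after filterByExpr and TMM scaling (factors 0.855 to 1.11), with 2 residual degrees of freedom and a biological coefficient of variation of 42.9%. Allele counts were tested on library, genotype and parent (4 residual degrees of freedom), for genes that averaged 10 allele reads or more in a library. p-values were Benjamini-Hochberg adjusted over all genes tested, with a threshold of 0.05. DESeq2 1.42.0, other scalings and filters and leaving out each library were alternatives. Fits were tested on simulated data with a smaller spread between libraries than these data had. How they perform at the spread seen here was not tested. Locus coordinates, exon lengths and promoters came from TAIR10.1. Values in every library are given for members averaging at least 20 RPM, past a threshold, or with the largest stage difference of their class, and for other members chosen after their values were seen. Members and lists were chosen with earlier results of these data known.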

Additional observations from a re-analysis of the deposited data

How the results depend on the processing

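DESeq2 in place of edgeR moved the members higher at the 8-cell over the 1-cell/2-cell stage to 3 and those lower to 1, the higher at the 32-cell over the 8-cell stage to 1, those higher at the 32-cell over the 1-cell/2-cell stage to 8, those changed at any stage to 8 and those with more Cvi-0 than Col-0 reads to 0. With no filter on low counts, 6 members were higher at the 32-cell over the 1-cell/2-cell stage. Leaving out 1 library at a time gave 0 to 3 members higher and 0 to 1 lower at the 8-cell over the 1-cell/2-cell stage, 1 to 7 higher at the 32-cell over the 1-cell/2-cell stage, 1 to 6 changed at any stage, 1 to 2 with more Col-0 reads and 0 with more Cvi-0 reads. The 32-cell count was 1 without Col-0 x Cvi-0 embryos of the 1-cell/2-cell stage, 7 without their reciprocal or the 32-cell Col-0 x Cvi-0 library, and 5 without either 8-cell library. The share of all genes called in the fits with no filter or without a library is not given here. These counts therefore describe how far the calls moved and are not a result about the members. The cause of the shifts was not tested.

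The cross served as the block that pairs libraries over stages. With no replicate block the counts were unchanged, at 1 member higher at the 8-cell and 2 at the 32-cell over the 1-cell/2-cell stage. No alternative in which they were tested reversed the log2 difference of the 8 genes refitted, but class medians turned sign. CYCD7;1 had a value in only 5 of the fits that left out 1 library. The A-type median ranged from -0.46 to 0.55 at the 8-cell and from -0.41 to 1.03 at the 32-cell over the 1-cell/2-cell stage (-0.12 with no filter on low counts), the D-type median reached 0.03 at the 32-cell stage, and the CDK and KRP medians at the 8-cell stage reached -0.04 and -0.24. Where a fit leaves a stage with 1 library, that library is assumed to vary like the others. At 16 members 20 or fewer reads covered a variant, some of them in genes with many reads, such as CYCD3;3 with 24048.5 gene reads and 3 allele reads.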

Other observations

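Below the minimum for a test, some members had lopsided allele reads. KRP7 had 51 Col-0 and 8 Cvi-0 reads, and 29 against 3 remained without its leading variant. CYCD7;1 had 19 Col-0 and 0 Cvi-0 reads. CYCA2;1 had 1 Col-0 and 15 Cvi-0 reads, 14 of them from the Cvi-0 x Col-0 embryos of the 1-cell/2-cell stage, where the Cvi-0 and the maternal allele cannot be told apart.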
